A study of Mus musculus with 13 samples.

Results

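The RNA-binding proteins of the Elavl, Rbfox, Nova and Celf families were followed in the cerebral meninges, the membranes that cover the cortex, of newborn C57BL6 mice. The 10 genes were chosen by name, as members of these families, with earlier results of these data known: Elavl2, Elavl3, Elavl4, Rbfox1, Rbfox2, Rbfox3, Nova1, Nova2, Celf4 and Celf5. Each was read from its brightest probe set that carries a single gene symbol, and all 10 were among the 19938 genes tested. Tissue came from 13 pups of 1 litter, hybridised to Affymetrix Mouse Gene 1.0 ST arrays with 1 array per pup. The 4 mutants lacked both copies of Pdgfc, which encodes a platelet-derived growth factor, and carried the Pdgfra GFP/+ reporter allele, which leaves a single functional copy of its receptor gene. The 9 controls were the other littermates, which were wild type, heterozygous or null for Pdgfc without the reporter allele, or carried it together with Pdgfc+/+ or Pdgfc+/-. The genotype of each single control is not given in the labels. The mutation is present in every cell of the pup, so it is not restricted to the meninges.

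Neurons process and stabilise their transcripts with RNA-binding proteins that most other cells lack. The neuronal Elavl proteins (also called Hu antigens) bind AU-rich and U-rich stretches of transcripts and are widely used as markers of neurons that have left the cell cycle. Rbfox, Nova and Celf proteins bind short motifs near alternative exons and steer the splicing of genes for synapses, channels and the cytoskeleton. Several of these families also hold a paralog that is expressed in most tissues: Elavl1 (HuR), Rbfox2, Celf1 and Celf2. The meninges are built of fibroblasts, vessels and macrophages and normally hold few neurons. The arrays give 1 value per gene and do not show splicing.

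To show what lies before the starts of a neuronal gene and of a broadly expressed paralog, the 250 bases before an annotated start are given for 4 genes (RefSeq, GRCm38.p6, 5′ to 3′ along the gene). The capitals mark CAGCTG, the E-box that proneural transcription factors bind.
Elavl3, chr9:22052024-22052273, minus strand: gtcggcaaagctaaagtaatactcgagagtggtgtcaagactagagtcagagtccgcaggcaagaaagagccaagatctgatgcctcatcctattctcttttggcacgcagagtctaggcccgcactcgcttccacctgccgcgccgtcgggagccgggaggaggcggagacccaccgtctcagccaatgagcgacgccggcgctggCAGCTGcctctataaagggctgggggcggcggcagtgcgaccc
Elavl4, chr4:110287528-110287777, minus strand: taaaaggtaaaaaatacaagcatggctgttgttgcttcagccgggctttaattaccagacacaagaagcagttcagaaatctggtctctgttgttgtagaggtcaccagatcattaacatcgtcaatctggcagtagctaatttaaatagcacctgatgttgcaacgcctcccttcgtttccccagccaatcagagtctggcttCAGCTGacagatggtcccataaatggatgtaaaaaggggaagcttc
Elavl1, chr8:4325101-4325350, minus strand: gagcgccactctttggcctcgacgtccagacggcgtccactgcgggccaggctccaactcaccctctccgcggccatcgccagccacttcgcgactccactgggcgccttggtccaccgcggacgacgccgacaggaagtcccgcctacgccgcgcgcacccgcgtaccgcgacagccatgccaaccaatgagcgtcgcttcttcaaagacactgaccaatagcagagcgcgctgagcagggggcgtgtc
Celf1, chr2:90940147-90940396, plus strand: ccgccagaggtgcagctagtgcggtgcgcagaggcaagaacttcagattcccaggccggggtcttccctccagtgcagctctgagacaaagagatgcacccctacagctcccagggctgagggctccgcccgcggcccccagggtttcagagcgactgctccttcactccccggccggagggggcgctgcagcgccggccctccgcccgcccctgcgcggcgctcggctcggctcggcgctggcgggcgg

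CAGCTG, which reads the same on both strands, was found once in the Elavl3 window, 43 bases before the start, and once in the printed Elavl4 window, 46 bases before the start. It was not in the windows of Elavl1 and Celf1, nor in those of Celf2. The printed Elavl4 window was picked as the first listed that holds CAGCTG, so its match was fixed by that choice. Of the 4 Elavl4 windows 2 held it. Windows were searched for 8 of the 10 genes, all but Rbfox2 and Celf4. They number 21 because some genes have several starts, and windows of 1 gene can overlap. Rbfox2 had no window to search. Windows on 1 chromosome, that of Celf4, were left out for the named genes but not for the count over all genes. Whether Celf4 holds these motifs was therefore not searched. Of the 21 windows 6 held CAGCTG, in Elavl3, Elavl4, Rbfox1, Nova1 and Celf5, while 13% of 32851 windows of all genes did. It was in 0 of the 6 windows of Elavl2 and not in those of Rbfox3 and Nova2. The other motifs searched on both strands were the NeuroD E-box CAGATG (3 of the 21 windows, all of Elavl4, against 14.4% of all windows), the TATA box TATAAA (1 window, of Elavl3, against 12.4%) and the GC box GGGCGG (10 windows, of Elavl2, Elavl3, Nova2 and Celf5, against 32.7%). The cAMP response element TGACGTCA was in 0 of the 21 windows and in 1.55% of all windows. TTCAGCACC, a core piece of the RE1 element bound by the repressor REST, was in 0 of the 21 and in 0.301% of all windows. A match is a description of letters and not of a bound site.

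Values are intensities on a linear scale, computed by the authors with PLIER, which condenses the probes of a probe set to 1 number. Changes are differences of the mean log2(intensity + 16) between mutants and controls, fitted with limma across all genes, and a gene rose or fell at a Benjamini-Hochberg adjusted p under 0.05. Because of the added 16, a fold is smaller than the ratio of intensities where a group lies near 16. The median intensity of an array was 56.0 to 89.7 in mutants and 44.1 to 89.0 in controls, and mutant 3 and controls 1, 3 and 6 were the dimmest arrays. Pdgfc read 22.8 to 29.3 in mutants, 5.88 in control 2 and 103 to 275 in the other controls. The 12 listed meningeal fibroblast genes were all measured, with a summed intensity of 25335 to 38898 in mutants and 30379 to 40648 in controls. No other tissue was at hand for comparison, so these sums do not test the tissue label. Xist was at 2.24 to 4.77 in the 4 mutants and at 4.78 to 8.73 in controls 1, 5 and 8, against 536 to 1020 in the other controls, so all 4 mutants and 3 of the 9 controls have the pattern of males. In a model with the Xist level added, the same 9 of the 10 genes described next still rose. The number of arrays limits the precision of every value, and the pups of 1 litter are the replicates.

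Neuronal RNA-binding genes were higher in mutant meninges. Of the 10 genes 9 rose and 0 fell with limma, where 8.58% of all tested genes rose and 6.31% fell. At an unadjusted p under 0.05 all 10 were higher and 0 were lower, and per-gene tests with equal or with unequal variances also gave 9 rises and 0 falls. For the counts at an unadjusted p, here and in the lists below, the share of all tested genes was not counted. In the same 9 genes every mutant lay above every control, which held for 6.4% of all tested genes. The median log2 change of the 10 genes was 2.35, and that of all tested genes was 0.0043. In bulk tissue more cells of a type and more RNA per cell cannot be told apart. Neuronal markers moved with these genes: of 18 measured pan-neuronal genes 17 rose, and their summed intensity was 16667 to 21018 in mutants and 2072 to 5291 in controls. Markers of other cells moved too: 6 of 10 endothelial genes fell, with sums of 5394 to 7031 in mutants and 7514 to 15892 in controls. In each of these 6 every mutant lay below every control, which held for 606 of the 19938 tested genes. In the model with Xist 0 of the 10 endothelial genes fell, and in the one blocked by replicate number 4 did. Of the 12 fibroblast genes Col1a1 and Col3a1 rose and Ptgds and Slc6a13 fell with limma, by 1.46 and 1.08 on the log2 scale, while 0 passed with unequal variances. The part of neuronal or other cells in the changes below was not tested.

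**Figure D1:**
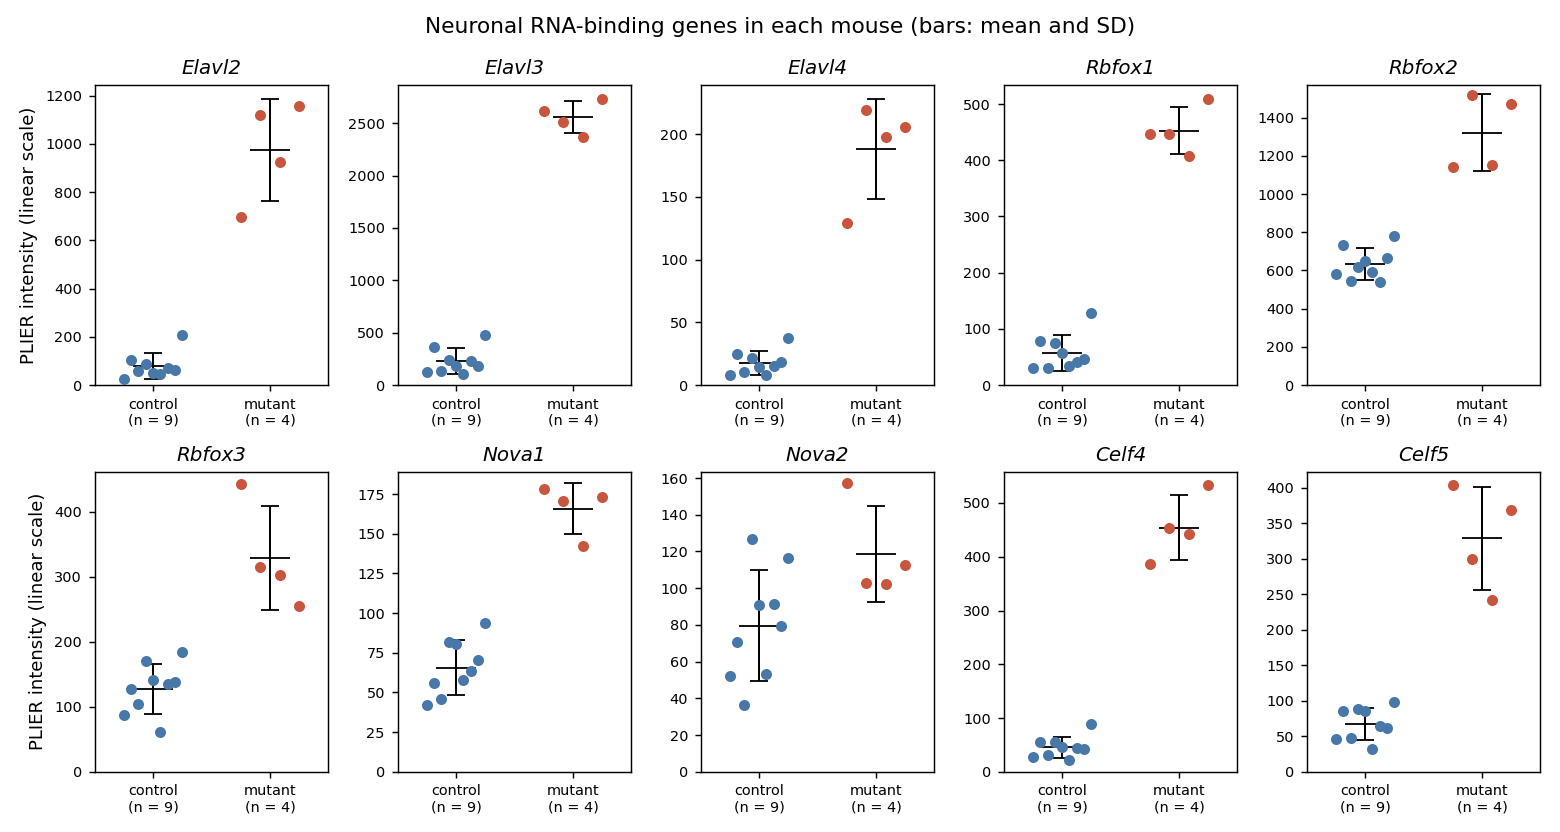
PLIER intensity (vertical axis, linear scale, separate for each gene) of the 10 genes in each of the 9 controls and 4 mutants, with the mean and SD as bars. The mutants lie above all controls for 9 genes, while for Nova2 the mutants at 102 to 157 overlap the controls at 36.6 to 127.

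Elavl3 and Elavl2 had the largest log2 changes of the 10 genes, and the third neuronal Elavl gene, Elavl4, rose as well. Elavl3 encodes HuC, an early marker of postmitotic neurons. Its intensity was 2615, 2516, 2369 and 2735 in mutants 1 to 4. In controls it ranged from 104 to 482 with a median of 184. All mutants lay above the highest control, which was control 9. The log2 change of Elavl3 was 3.55 (standard error 0.28, adjusted p = 1.28e-08, limma), an 11.7-fold rise. Elavl2 encodes HuB, which is made in neurons and in the gonads. Its intensity was 697, 1119, 926 and 1158 in mutants 1 to 4, and 23.6 to 208 with a median of 62.0 in controls. The groups did not overlap, and mutant 1 was the lowest mutant. Elavl2 rose by 3.52 on the log2 scale (standard error 0.30, adjusted p = 3.93e-08, limma), or 11.5-fold. Elavl4 encodes HuD, which stabilises transcripts of growing axons such as that of Gap43. Its intensity was 130, 219, 198 and 206 in mutants 1 to 4. In controls it was 7.70 to 37.6 with a median of 15.3, so the control level was close to the added constant. Elavl4 rose 6.19-fold (log2 change 2.63, standard error 0.20, adjusted p = 6.66e-09, limma). With 1 in place of 16 its log2 change was 3.48.

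Elavl1, the broadly expressed member of the family, did not rise with its paralogs. HuR, its protein, binds AU-rich transcripts in most cell types. Its intensity was 669, 673, 576 and 683 in mutants 1 to 4, and 609 to 860 with a median of 751 in controls. The groups overlapped, and the log2 change was -0.17 (95% interval -0.42 to 0.08, adjusted p = 0.490, limma). This value turned to 0.10 with each array centred on meningeal fibroblast genes. To compare the paralogs directly, the log2 value of Elavl1 was subtracted from that of every gene on the same array. Limma was then run on the differences. Only brightness that both genes share cancels in this way. Elavl1 read 751 in control 6, the dimmest control array, and 760 in control 9, the brightest, so brightness can remain in the differences. Relative to Elavl1, all 3 neuronal genes rose, against 20.5% of 19937 other genes. The difference was 3.69 for Elavl2 (95% interval 3.01 to 4.37, adjusted p = 3.18e-07), 3.73 for Elavl3 (3.12 to 4.33, adjusted p = 8.18e-08) and 2.80 for Elavl4 (2.39 to 3.21, adjusted p = 2.97e-08), all with limma.

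The Rbfox genes all rose, and Rbfox1 had the largest change. Rbfox1 encodes a splicing factor of neurons, heart and muscle. Its intensity was 447, 447, 407 and 510 in mutants 1 to 4. In controls it was 29.7 to 128 with a median of 46.9, and control 9 was again the highest. Rbfox1 rose 6.80-fold (log2 change 2.77, standard error 0.24, adjusted p = 4.87e-08, limma). Rbfox3 encodes NeuN, the nuclear antigen by which most mature neurons are stained. Its intensity was 442, 316, 303 and 255 in mutants 1 to 4, and 61.0 to 184 with a median of 136 in controls. The groups did not overlap, but the lowest mutant was closer to the highest control than for the Elavl genes. Rbfox3 rose 2.45-fold (log2 change 1.29, standard error 0.21, adjusted p = 1.46e-04, limma). Rbfox2 acts in many tissues and also in neurons. It was at 1144, 1520, 1153 and 1470 in mutants 1 to 4 and at 540 to 783 with a median of 619 in controls. Rbfox2 rose 2.05-fold (log2 change 1.04, standard error 0.13, adjusted p = 8.72e-06, limma), and every mutant lay above every control.

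Relative to Rbfox2 on the same array, 1 of the other 2 family members rose, against 2.33% of 19937 genes. Rbfox1 rose more than Rbfox2, by 1.73 on the log2 scale (95% interval 1.30 to 2.15, adjusted p = 8.93e-07, limma). For Rbfox3 the difference was 0.25 (95% interval -0.22 to 0.72, adjusted p = 0.272, limma), which leaves room for a rise of Rbfox3 that is smaller or larger than that of Rbfox2. Without mutant 1 the difference was 0.04.

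**Figure D2:**
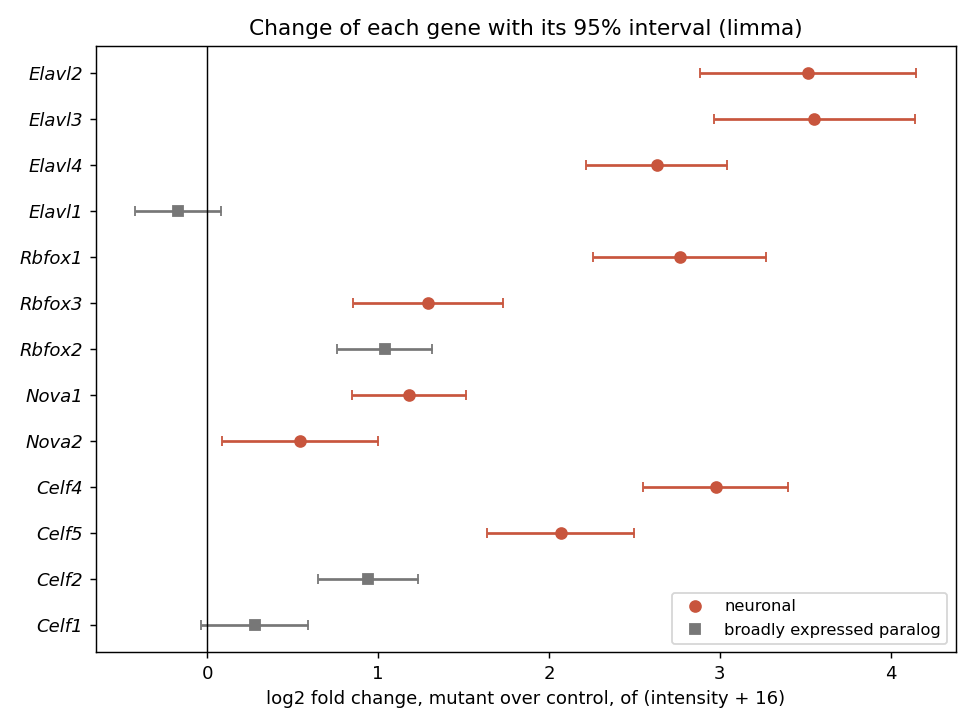
Log2 fold change of (intensity + 16), mutant over control, for each gene (horizontal axis) with its 95% interval from limma, with neuronal genes as circles and broadly expressed paralogs as squares. The intervals of Elavl1 (-0.42 to 0.08) and Celf1 (-0.03 to 0.59) include 0, and those of Rbfox2 and Celf2 lie above it.

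Nova1 rose, and Nova2 had the smallest change of the 10 genes. Nova proteins bind YCAY clusters in transcripts of the inhibitory synapse, and Nova1 is best known from the brainstem, spinal cord and ventral forebrain while Nova2 is the main form of the cortex. Nova1 had an intensity of 178, 171, 142 and 173 in mutants 1 to 4. In controls it was 42.4 to 93.5 with a median of 63.3. The groups did not overlap, and Nova1 rose 2.26-fold (log2 change 1.18, standard error 0.16, adjusted p = 1.70e-05, limma). Nova2 had an intensity of 157, 103, 102 and 112 in mutants 1 to 4, and 36.6 to 127 with a median of 79.2 in controls. Controls 4 and 9, at 127 and 116, lay above 3 of the 4 mutants. Its log2 change was 0.54 (95% interval 0.08 to 1.00, adjusted p = 0.118, limma), which did not pass the test. It passed after quantile normalization (log2 change 0.44, adjusted p = 0.0296), with each array centred on its median (0.44, 0.0345) or on meningeal fibroblast genes (0.81, 0.0399), and without control 4 (0.62, 0.0486). Over all alternatives its adjusted p ranged from 0.0296 to 0.378. Relative to Nova2 on the same array, Nova1 rose by 0.64 (95% interval 0.24 to 1.03, adjusted p = 0.0109, limma), as did 3.18% of 19937 genes. This comparison was added after the values were seen, and it lost its call in a model with Xist (adjusted p = 0.0611) and in one blocked by replicate number (0.108).

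Both neuronal Celf genes among the 10 rose, Celf4 more than Celf5. Celf4 encodes a protein that binds transcripts of synaptic genes in excitatory neurons. Its intensity was 387, 454, 442 and 533 in mutants 1 to 4. In controls it was 22.2 to 88.2 with a median of 44.7, so the groups did not overlap. Celf4 rose 7.87-fold (log2 change 2.98, standard error 0.20, adjusted p = 2.35e-09, limma). Celf5, a brain-enriched paralog, was at 404, 300, 242 and 369 in mutants 1 to 4 and at 32.6 to 97.8 with a median of 63.8 in controls. The groups did not overlap, and Celf5 rose 4.20-fold (log2 change 2.07, standard error 0.21, adjusted p = 2.86e-07, limma).

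Of the broadly expressed Celf genes 1 rose. Celf1, which regulates splicing and decay in muscle and most other tissues, was at 830, 1121, 834 and 1248 in mutants 1 to 4 and at 600 to 1016 with a median of 821 in controls. The groups overlapped, and the log2 change was 0.28 (95% interval -0.03 to 0.59, adjusted p = 0.291, limma). It passed as a rise after quantile normalization (0.31, adjusted p = 0.00487) and with each array centred on reference genes (0.43, 0.00409) or fibroblast genes (0.55, 2.80e-04). Celf2, which is broad but abundant in brain, was at 859, 941, 835 and 1088 in mutants 1 to 4 and at 407 to 663 with a median of 459 in controls. Every mutant lay above every control, and Celf2 rose 1.92-fold (log2 change 0.94, standard error 0.14, adjusted p = 5.46e-05, limma). Relative to Celf1, both Celf4 and Celf5 rose, against 5.22% of 19937 genes. The difference was 2.70 for Celf4 (95% interval 2.23 to 3.16, adjusted p = 6.34e-07, limma) and 1.79 for Celf5 (1.30 to 2.28, adjusted p = 2.90e-05). Relative to Celf2 it was 2.03 for Celf4 (1.74 to 2.33, adjusted p = 9.96e-10, limma) and 1.13 for Celf5 (0.79 to 1.47, adjusted p = 3.17e-06). In all 10 differences between paralogs were tested, each adjusted over all genes.

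**Figure D3:**
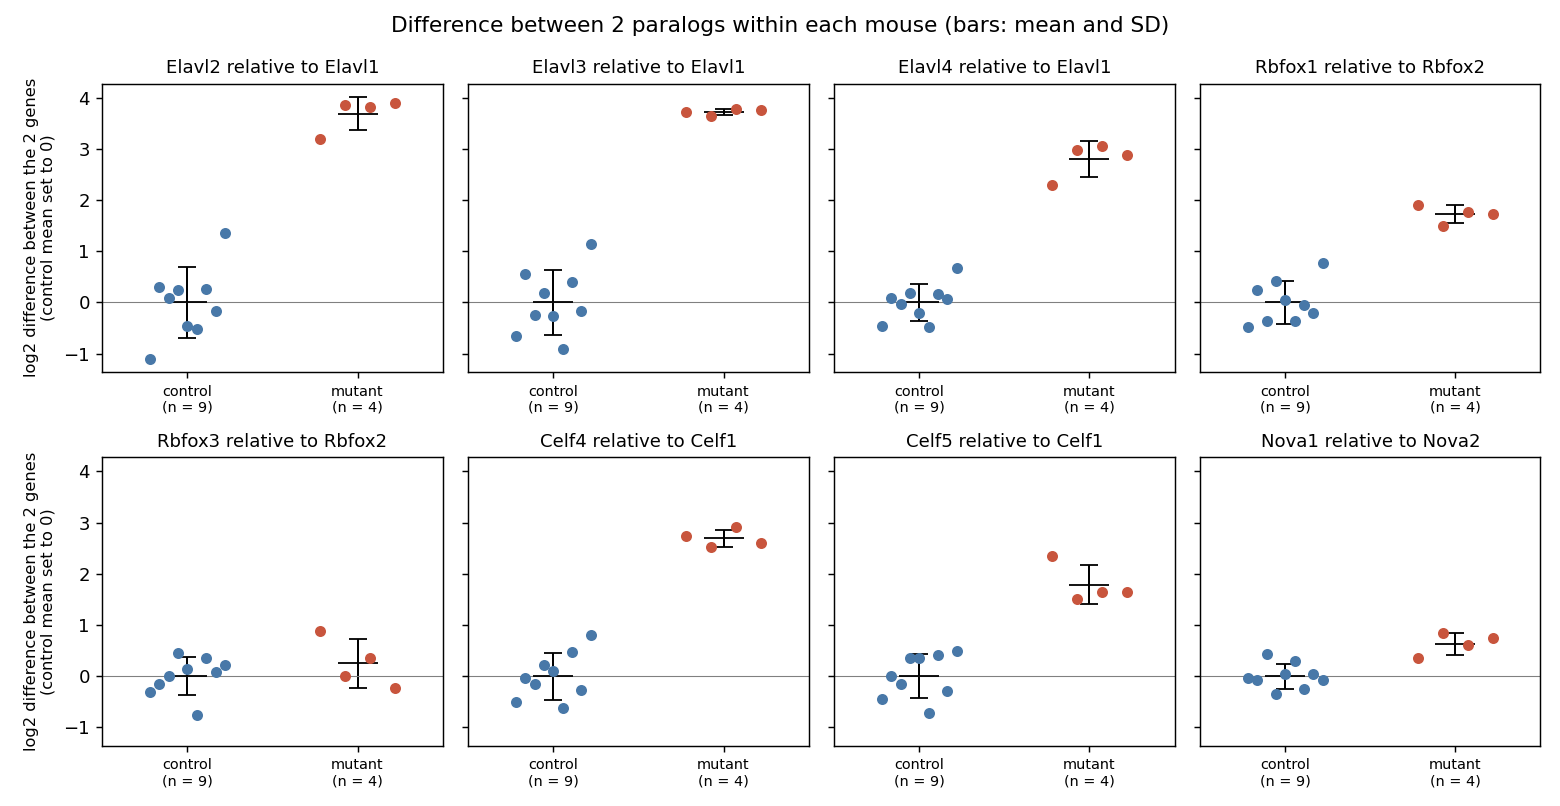
Difference of log2(intensity + 16) between 2 paralogs in each mouse (vertical axis, with the mean of the 9 controls set to 0), for controls and mutants with the mean and SD as bars. The 4 mutants lie above all controls for Elavl2, Elavl3, Elavl4, Rbfox1, Celf4 and Celf5, and they overlap the controls for Rbfox3 relative to Rbfox2 and for Nova1 relative to Nova2.

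Among controls the same few mice stood at the ends for most genes, while the order of the mutants differed between genes. Control 9 was the highest control for 9 of the 10 genes, with Nova2 as the exception. It also had the highest array median of the controls, 89.0, and the highest mean log2 intensity of pan-neuronal genes, 7.66 against 6.33 to 7.35 in the other controls. The share of all genes with control 9 as the highest control was not counted. Over the 9 controls the genes correlated with the array median at 0.66 (Rbfox2) to 0.97 (Celf5). With the pan-neuronal mean they correlated at 0.65 (Nova1) to 0.99 (Elavl3). The lowest control was control 1 for 4 genes, control 6 for 4, and controls 3 and 7 for 1 each. Controls 1, 3 and 6 were the dimmest control arrays. Among mutants, mutant 1 was the highest for Rbfox3, Nova1, Nova2 and Celf5 and the lowest for Elavl2, Elavl4, Rbfox2 and Celf4. The part of array brightness in this spread was not tested, and without the 4 dimmest arrays the same 9 genes rose, with a median log2 change of the 10 genes of 2.18.

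Other neuronal RNA-binding genes also rose. Of 10 measured genes of this list 7 rose and 0 fell with limma, where 8.58% of all tested genes rose and 6.31% fell. The median log2 change was 0.98 against 0.0043 for all tested genes. At an unadjusted p under 0.05 the counts were 7 and 0, with equal variances 7 and 0, and with unequal variances 5 and 0. Celf3, a neural member of the Celf family, rose 8.74-fold, from 77.3 ± 26.6 (SD, n = 9) to 776 ± 119 (SD, n = 4), and every mutant lay above every control. Celf6 had a log2 change of 0.32 (adjusted p = 0.401, limma). Ptbp2, which replaces Ptbp1 when neurons form, rose 3.39-fold, from 355 ± 74.6 (SD, n = 9) to 1238 ± 254 (SD, n = 4). Ptbp1 itself, a repressor of neuronal exons in non-neuronal cells, fell by 0.53 on the log2 scale (adjusted p = 0.0138, limma). Its fall lost the call without mutant 3 (adjusted p = 0.0556), with each array centred on fibroblast genes (0.0904), in a model with Xist (0.105) and in one blocked by replicate number (0.0628). Srrm4, an activator of neuronal microexons, rose 2.24-fold (adjusted p = 2.43e-04, limma, and 0.0539 with unequal variances), while its paralog Srrm3 had a log2 change of 0.25 (adjusted p = 0.692). Khdrbs3 and Khdrbs2, which encode the neural Sam68-like proteins, rose 2.93-fold and 1.98-fold, and Khdrbs1, the gene of the ubiquitous Sam68, had a log2 change of 0.18 (adjusted p = 0.472). The call of Khdrbs2 was lost with unequal variances and in the model with Xist (adjusted p = 0.133 each). Stau2, which carries transcripts into dendrites, rose 1.98-fold and its broad paralog Stau1 had a log2 change of 0.12 (adjusted p = 0.737). Cpeb3, a translational regulator at synapses, rose 1.45-fold, a call that was lost in the blocked model (adjusted p = 0.0806). Mbnl2 had a log2 change of -0.28 (adjusted p = 0.237) and Mbnl1 of -0.35 (0.0684). Mbnl1 passed as a fall under 10 alternatives, among them quantile normalization (adjusted p = 2.02e-04), equal variances (0.0292), array weights (0.0436) and centring on the array median (0.0478). The differences within these pairs were not tested.

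RNA-binding genes that are not neuronal showed no common rise. Of 12 broad counterparts, Elavl1, Celf1 and Celf2 among them, 2 rose (Celf2 and Cpeb4) and 1 fell (Ptbp1), with a median log2 change of 0.12. This list leaves out Rbfox2, a broad paralog that is counted among the 10 genes and rose 2.05-fold. Cpeb4 rose by 0.58 on the log2 scale (adjusted p = 0.00340, limma). With each array centred on reference genes 5 rose, and centred on fibroblast genes 7 rose, with medians of 0.27 and 0.39. Ptbp3 (-0.33), Srrm1 (0.13), Srrm2 (0.12) and Snrpb (-0.13) did not pass the test. Of 18 measured general splicing factors 0 rose and 0 fell with limma, with changes from -0.20 to 0.28 and a median of 0.04. At an unadjusted p under 0.05, 1 of them was higher (Hnrnpc, log2 change 0.28, named after its value was seen) and 0 were lower, and tests with equal or unequal variances called 0. With arrays centred on reference genes 4 rose and on fibroblast genes 9, where the median of all tested genes was itself 0.15 and 0.27. Of 7 genes of progenitors and fetal tissue, Msi1, a marker of neural progenitors, rose 2.27-fold (adjusted p = 2.15e-05, limma), and Igf2bp1 fell by 0.47 on the log2 scale (adjusted p = 0.0205), a call that was lost without mutant 1, 2 or 3 (0.0712, 0.0690 and 0.0521), with either of these centrings (0.125 and 0.267), with the mean of its probe sets (0.269), in the model with Xist (0.0763) and in the blocked model (0.157). Msi2 had a change of -0.26 (adjusted p = 0.220). Of 8 genes of non-neural tissues 0 rose with limma, at an unadjusted p under 0.05 or by the other tests, and Rbm47, an epithelial and myeloid factor, fell by 0.81 on the log2 scale (adjusted p = 4.61e-04). Genes of myeloid cells moved with it, since 9 of 10 microglia and macrophage markers fell with limma, where 6.31% of all tested genes fell. Their summed intensities were 3353 to 6149 in mutants and 7391 to 10147 in controls. In the tests with unequal variances only 1 of the 10 fell.

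**Figure D4:**
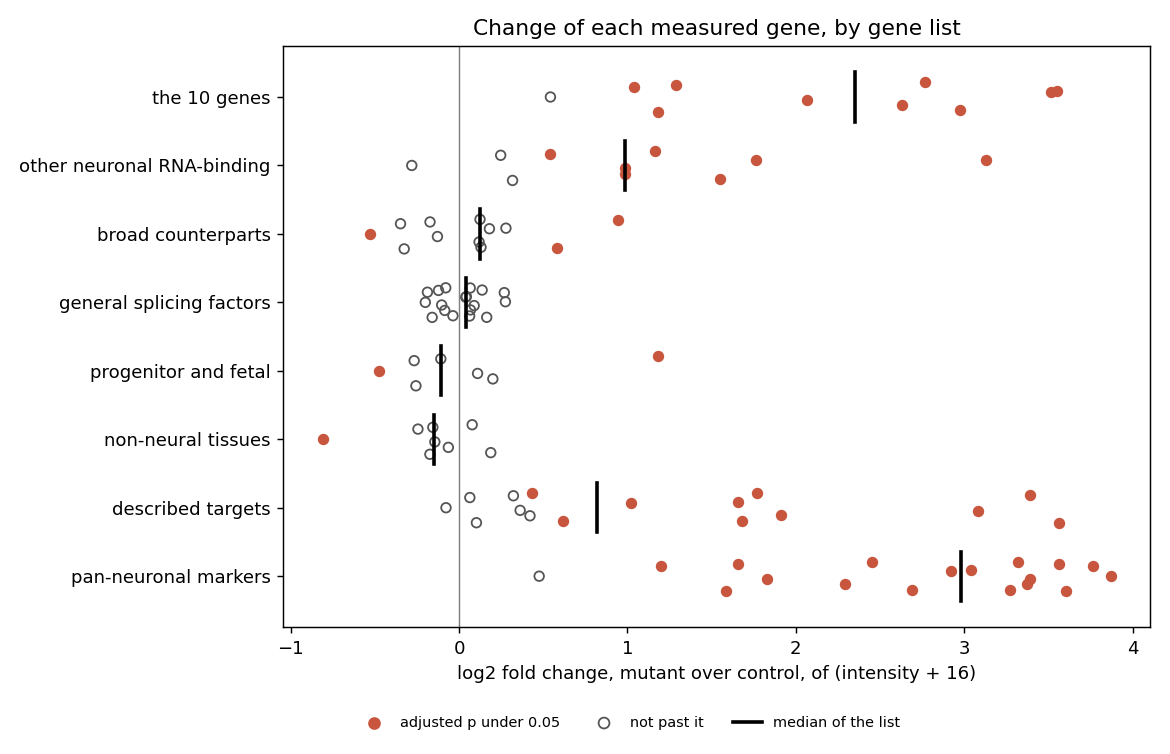
Log2 fold change of (intensity + 16), mutant over control (horizontal axis), of each measured gene in 8 lists, with filled points for an adjusted p under 0.05 and a line at the list's median. The 10 genes, Rbfox2 among them, have a median of 2.35, the 12 broad counterparts, which do not include Rbfox2, of 0.12, and the general splicing factors of 0.04.

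Transcripts that have been described as bound or spliced by these proteins were measured for 16 of 20 listed genes. Of these 10 rose and 0 fell with limma, where 8.58% of all tested genes rose and 6.31% fell. Their median log2 change was 0.82, against 0.0043 for all tested genes. At an unadjusted p under 0.05, 11 were higher and 0 lower, and tests with equal or unequal variances each gave 9 rises and 0 falls. Snap25, a synaptic vesicle gene, rose 11.8-fold (adjusted p = 7.18e-10, limma), from 34.2 ± 17.8 (SD, n = 9) to 548 ± 48.7 (SD, n = 4). Dlg4, the gene of the postsynaptic scaffold PSD-95, whose exon Ptbp proteins repress, rose 3.76-fold. Glra2, a glycine receptor gene spliced by Nova, rose 8.45-fold, from 22.5 ± 17.5 (SD, n = 9) to 287 ± 31.1 (SD, n = 4). These are changes of gene level and not of exon use. Gap43, Mapt and Snap25 of this list are also pan-neuronal markers, so it is not independent of neuronal content.

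The genes whose pattern over the 13 mice was most like that of Elavl3, Celf4, Rbfox3 or Nova2 were also listed. The likeness is the Pearson correlation of log2(intensity + 16) over the 13 mice, which share the group difference and array brightness, and it is given as a description. For Elavl3 the 3 most similar genes outside the 10 were Kif5c, a kinesin of axons (0.998), Nell2 (0.997) and Agap2 (0.997). For Celf4 they were Erbb4, the neuregulin receptor gene (0.999), Sgip1 (0.998) and the neurexophilin gene Nxph1 (0.997). For Rbfox3 they were Nfasc, a cell adhesion gene of axons (0.980), Rnf208 (0.980) and the GABA-B receptor gene Gabbr2 (0.978). For Nova2 they were Defb28 (0.950), Sprn (0.950) and Osbp2 (0.947), and like Nova2 itself none of these 3 passed the test, with log2 changes of 0.37 to 0.62.

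Of the neuronal classes that could hold these transcripts, genes of interneurons and of projection neurons both rose. Over all tested genes 8.58% rose. Of 10 interneuron genes 9 rose, with a summed intensity of 7142 to 9030 in mutants and 444 to 1232 in controls. Of 8 measured projection neuron genes 5 rose, with sums of 2866 to 3903 and 704 to 1686. Of 9 measured neural progenitor genes Sox2 rose, with sums of 8582 to 12245 and 6355 to 9208, and the other genes did not pass the test. None of the measured genes of these classes read 0 in any mouse. A reading above 0 does not show that a transcript is present, since Xist read 2.24 to 4.77 in the 4 mutants, which have the pattern of males. The part of each class in the changes of the RNA-binding genes was not tested.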

How the data were processed

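Cerebral meninges of 13 newborn littermates were profiled on Affymetrix Mouse Gene 1.0 ST arrays, 1 per mouse. Per the methods and the labels, the authors normalised raw data with PLIER. The authors deposited 1 linear intensity for each of 35557 probe sets. The version, background step and scaling between arrays are not given in the sources used here, and array medians differ. Of the probe sets 21789 carry 1 symbol in the platform table, 1621 carry several and 12147 are not listed. A gene was represented by its brightest probe set with 1 symbol (999 genes had several), which gave 19938 genes.

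Values were taken as log2(intensity + 16) and compared by a moderated two-sided test in limma 3.58.1 (R 4.3.3). P-values were adjusted over all genes by Benjamini-Hochberg, and the threshold was 0.05. For paralogs the value of 1 gene was subtracted from all others on each array before the fit. The fit was tested on simulated data with known changes. The simulated noise was independent between genes and arrays, so it lacked the brightness that genes of 1 real array share. Plots used matplotlib 3.10.9 (Python 3.11.15).

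The members and lists were chosen with earlier results of these data known. Named are all 10 members, the broad and other neuronal RNA-binding genes, up to 3 genes of each other list by adjusted p, and the 3 most similar genes of 4 members. Listed symbols without a probe set of their own, such as Snrpn, have no value. Alternatives were tests with equal or unequal variances, array weights, an intensity trend, 4 other scalings, 1 or 32 in place of 16, leaving out the dimmest 25% or 50% of genes, other uses of probe sets, a model with Xist, one blocked by replicate number, and leaving out arrays. All 13 sample columns were used, and no 2 were identical.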

Additional observations from a re-analysis of the deposited data

Results flagged for a closer look

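In 26 sets of values (13 genes in each group), 3 values in 2 mice stood apart from their group by Dixon's ratio, where chance alone marks about 1 in 20. Elavl2 was at 208 in control 9, with the next control at 106. Rbfox1 was at 128 in control 9, with the next control at 78.2. Elavl1 was at 576 in mutant 3, with the other mutants at 669 to 683. Control 9 has the brightest control array and mutant 3 the dimmest mutant array, and their part in these values was not tested.

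The second probe sets of Nova1 and Celf2, which the comparisons above do not use, were also higher in mutants, while that of Celf1 had a log2 change of 0.43 that did not pass (adjusted p = 0.0694 over all probe sets, limma). In mutants that of Nova1 read 67.3 ± 11.1 (SD, n = 4), while controls read 21.6 ± 5.45 (SD, n = 9), so the log2 change was 1.15 (adjusted p = 7.35e-06 over all probe sets, limma). For Celf2 the mutants read 161 ± 9.56 (SD, n = 4) and the controls 46.1 ± 17.3 (SD, n = 9), so the log2 change was 1.56 (adjusted p = 2.99e-05, limma).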

How the results depend on the processing

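The 9 genes that rose kept their call under every alternative that tested them, 29 or 30 for each gene, and the count of rises among the 10 was 9 or 10 when single mice were left out (10 without control 4). Leaving out the dimmest 50% of genes removed 4 of the 10, and the 6 that remained in the test rose. The differences from Elavl1, Rbfox2 and Celf1 kept their side of the threshold throughout. Rises relative to these paralogs stayed at 3, 1 and 2 with each mouse left out in turn. Elavl1 turned from -0.17 to 0.10 centred on fibroblast genes. Over all genes 1710 rose and 1258 fell. With unequal variances 1139 rose and 400 fell, and centred on fibroblast genes 4887 rose and 617 fell. Centred on reference genes 3142 rose. Falls numbered 2023 with array weights, 2140 centred on the array median, 3769 with quantile normalization and 605 in the model with Xist. With single mice left out, rises ranged from 1331 to 1904 and falls from 777 (without mutant 3; 778 without mutant 1) to 1490. The median log2 change of all genes, 0.0043, was 0.15 and 0.27 centred on reference and fibroblast genes and -0.11 with array weights. The cause of these shifts was not tested.

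The replicate number as a block gave 9 rises among the 10 genes and 545 falls over all genes. Whether mice of 1 number share more than that number is not known. Their deviations from the group means correlated at -0.34, 0.16, 0.31 and -0.09. These values were not compared with other pairs of mice, so they cannot decide it. Controls 5 to 9 have no mutant of their number. Relative to Nova2, the count of rises for Nova1 was 0 with the block and 0 in the model with Xist, and 1 when each mouse was left out. Low intensities such as those of Elavl4 in controls limit what the folds can show.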
